A study of Homo sapiens with 9 samples.

Results

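The Notch genes described here are 10 rows of the deposited count table of 26475 genes. They were chosen by symbol, as 3 receptors (NOTCH1, NOTCH2, NOTCH3), 3 ligands (JAG1, JAG2, DLL1) and 4 target genes (HES1, HES4, HEY1, HEYL). RNA was measured by RNA-seq in hTERT-RPE1, an established line of human retinal pigment epithelial cells immortalised with telomerase, 24 h after the cells were seeded on their surfaces. Control cells (n = 3 libraries) carried the empty pLKO_1 vector and grew on glass coated with fibronectin (FN). sh_PIP4K2B cells (n = 3) grew on the same FN-coated glass and expressed a short hairpin RNA against PIP4K2B, a kinase that phosphorylates the lipid PtdIns5P, with hairpin #1, #2 and #3 in 1 library each. Soft cells (n = 3) carried the empty vector and grew on an FN-coated hydrogel of 2.3 kPa. For Control and Soft the sample titles give the empty vector and the treatment label gives a control shRNA, and which of these the cells carried is not settled. Nothing states that the libraries of Control or of Soft came from separate cultures, so p-values measure the spread between libraries, which may be technical, and in sh_PIP4K2B that spread includes the differences between hairpins.

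Notch is a pathway of contact between neighbouring cells. A ligand of the Jagged or Delta-like family on one cell binds a Notch receptor on the next, the receptor is cut by an ADAM protease and then by gamma-secretase, and the freed intracellular domain enters the nucleus, where it joins the DNA-binding protein RBPJ and a Mastermind coactivator. Genes of the HES and HEY families, which encode bHLH repressors, are the best known targets of that complex, and in the developing eye the pathway is known for its part in retinal progenitor cells.

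The promoters of the target genes are shown because RBPJ recognises a short motif whose core is TGGGAA, or TTCCCA on the other strand. The sequences are from the RefSeq promoter table of GRCh38.p14, read 5′ to 3′ on the strand of the gene, with matches to the core in capitals. Positions count from the first transcribed base, and -1 is the base before it. The first line is chr3:194135898-194136147 on the plus strand, bases -250 to -1 of HES1. The second is chr1:1000168-1000347 on the minus strand, bases -250 to -71 of HES4, and stops there because an annotated longer transcript begins near that point. The third is chr1:39639644-39639893 on the minus strand, bases -250 to -1 of HEYL.
HES1: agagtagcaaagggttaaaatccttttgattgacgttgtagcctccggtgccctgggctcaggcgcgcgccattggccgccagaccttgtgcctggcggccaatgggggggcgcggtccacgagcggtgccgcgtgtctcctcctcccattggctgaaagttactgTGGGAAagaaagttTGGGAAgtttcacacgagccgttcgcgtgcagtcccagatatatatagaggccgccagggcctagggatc
HES4: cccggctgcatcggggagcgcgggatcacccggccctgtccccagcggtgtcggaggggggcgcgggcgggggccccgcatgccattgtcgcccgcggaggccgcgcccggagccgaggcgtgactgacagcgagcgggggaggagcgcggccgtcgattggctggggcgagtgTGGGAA
HEYL: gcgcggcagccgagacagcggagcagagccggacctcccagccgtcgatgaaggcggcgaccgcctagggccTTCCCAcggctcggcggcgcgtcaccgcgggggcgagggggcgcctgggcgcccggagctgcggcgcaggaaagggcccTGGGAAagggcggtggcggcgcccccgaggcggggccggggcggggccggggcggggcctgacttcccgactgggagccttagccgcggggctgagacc
HES1 held 2 matches, at -84 to -79 and -70 to -65, with first bases 14 apart and in the same orientation. HES4 held 1 match, at -76 to -71. HEYL held 2 matches in opposite orientation, at -178 to -173 and -99 to -94. In windows of 300 bases (250 before the start and 50 after it) the core was absent from NOTCH1, NOTCH2, NOTCH3, JAG1 and JAG2, and 8 of the 10 genes were searched. Of 35116 promoters of that length 24.03% held the core on either strand and 3.8% held it at least 2 times. A longer form of the motif that contains the core, GTGGGAA or TTCCCAC, was in 6.25% of the promoters, and HES1, HES4 and HEYL each held it. A match is a stretch of letters and not a measured binding site.

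Library totals ran from 19217346 to 24020799 estimated counts, and 13784 genes had enough counts to be tested. Levels are given as TMM-normalised CPM (each count as a share of its library total, scaled between libraries by edgeR), and 3 counts in 1 library, used as the floor, were 0.131 to 0.148 CPM. Fold changes, standard errors and adjusted p-values come from the quasi-likelihood test of edgeR, adjusted by Benjamini-Hochberg over the 13784 genes in 1 fit of the 9 libraries, and a gene passed at an adjusted p below 0.01. PIP4K2B itself stood at 120 to 124 CPM in Control and at 48.4, 40.9 and 36.6 CPM with hairpins #1, #2 and #3 (log2 fold change -1.54, adjusted p = 3.8e-04, edgeR), and at 119 to 127 CPM in Soft (log2 fold change 0.00, adjusted p = 0.981, edgeR). The median SD of log2 CPM between libraries, over the tested genes, was 0.0807 in Control, 0.356 in sh_PIP4K2B and 0.0733 in Soft. The test shares 1 estimate of the spread between groups, so the hairpin libraries also widen the error of Soft against Control. In the same way the Control and Soft libraries narrow the error of both comparisons with sh_PIP4K2B.

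On the soft gel NOTCH3, DLL1 and HES1 rose and HES4 fell against Control, so 4 of the 9 tested Notch genes passed. With PIP4K2B silenced none of the 9 passed with edgeR, and for JAG1, HES1, HES4 and HEY1 the hairpin libraries lay on both sides of the Control range. HEYL had 0 counts in every library and was not tested, and DLL1 was over the limit of the filter on low counts (0.459 CPM) in 3 of 3 Soft libraries, 2 of 3 sh_PIP4K2B libraries and 1 of 3 Control libraries. Over all tested genes 5.54% passed in sh_PIP4K2B against Control (2.76% higher and 2.77% lower) and 30.6% passed in Soft against Control (15.8% higher and 14.8% lower). For Soft against Control 51.7% of the genes that passed were higher, and 62.9% with scaling by library size only. Of the 9 Notch genes 3 were at an unadjusted p below 0.05 in sh_PIP4K2B (NOTCH1, NOTCH2 and HES1), where 33.2% of all tested genes were, and DESeq2 called 1 of them (NOTCH1) and 15.0% of all genes. The 9 genes had medians of 0.41 (sh_PIP4K2B) and 0.182 (Soft) on the log2 fold change scale, beside 0.0504 and 0.0125 over all tested genes. Both comparisons use the same Control libraries.

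**Figure D1:**
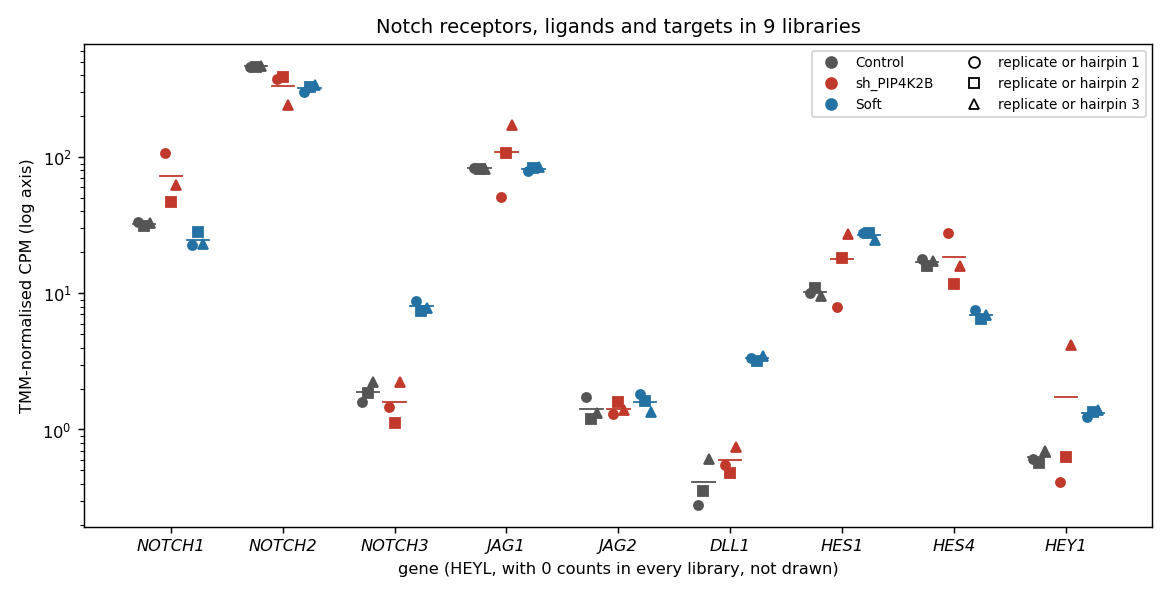
TMM-normalised CPM on a log axis for the 9 Notch genes with counts, with 1 point per library, the group in colour and a bar at the mean of 3 libraries. Soft sits above both other groups for NOTCH3 and DLL1 and below them for HES4, while the points of sh_PIP4K2B are spread widely for JAG1, HES1, HES4 and HEY1.

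To set genes beside each other, levels were divided by the length of the canonical transcript (CPM per kb). In Control the order by mean level was NOTCH2 at 40.7 CPM per kb, HES4 at 19.2, JAG1 at 14.0, HES1 at 6.49 and NOTCH1 at 3.40. The other members lay far lower, with HEY1 at 0.285 CPM per kb, JAG2 at 0.244, NOTCH3 at 0.217 and DLL1 at 0.110. Each of these neighbours was separated by the ranges of 3 libraries except HEY1 and JAG2, and JAG2 and NOTCH3, whose ranges overlapped. In Soft the order was NOTCH2 at 28.3 CPM per kb, HES1 at 17.0, JAG1 at 13.9, HES4 at 7.87, NOTCH1 at 2.58, NOTCH3 at 0.924, DLL1 at 0.883, HEY1 at 0.599 and JAG2 at 0.276, and only NOTCH3 and DLL1 overlapped as neighbours. HES1 and HES4 had changed places around JAG1, and NOTCH3 and DLL1 stood above HEY1 and JAG2. With the hairpins the ranges of NOTCH2 (21.2 to 34.2 CPM per kb), HES4 (13.2 to 31.2), JAG1 (8.59 to 29.0), HES1 (5.03 to 17.2) and NOTCH1 (4.94 to 11.3) each overlapped the next. Of the pairs among these 5, NOTCH2 lay wholly above HES1 and NOTCH1, and HES4 wholly above NOTCH1, and the other pairs overlapped.

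Among the receptors, NOTCH1 (chromosome 9, 136494433 to 136546048, minus strand) is the broadly expressed founding member of the family. It was at 33.7, 31.3 and 32.7 CPM in Control, 108, 47.3 and 62.5 CPM with hairpins #1, #2 and #3, and 22.9, 28.2 and 23.1 CPM in Soft. All 3 hairpin libraries were above all Control libraries and all 3 Soft libraries below them, and hairpin #1 stood at 331% of the Control mean, hairpin #2 at 145% and hairpin #3 at 192%. This gave a log2 fold change of 1.16 for sh_PIP4K2B (SE 0.258, adjusted p = 0.0166, edgeR), short of the threshold. DESeq2 gave an adjusted p of 4.58e-04, and the edgeR value was 0.00599 without hairpin #1 and 0.00291 without hairpin #2, within a range of 4.58e-04 to 0.0738 over the alternatives. In Soft the log2 fold change was -0.40 (95% interval -0.98 to 0.18, adjusted p = 0.23, edgeR). The fall in Soft passed only in a fit of the Control and Soft libraries alone (adjusted p = 1.38e-04, edgeR), where most of the 13578 genes tested passed.

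NOTCH2 (chromosome 1, 119911553 to 120100779, minus strand), the most abundant receptor, was at 464, 463 and 469 CPM in Control. It was at 377, 390 and 242 CPM with hairpins #1, #2 and #3 and at 303, 328 and 338 CPM in Soft, so every library of both groups was below every Control library. Against Control sh_PIP4K2B differed by -0.47 on the log2 scale (95% interval -0.85 to -0.09, adjusted p = 0.0894, edgeR) and Soft by -0.53 (95% interval -0.91 to -0.14, adjusted p = 0.0297, edgeR), and neither passed. Between Soft and Control NOTCH2 passed with DESeq2 (adjusted p = 0.0094), in a fit of only the Control and Soft libraries with edgeR, and with edgeR without hairpin #3 (adjusted p = 5.38e-04). Most of all tested genes passed in the fit of only those groups. NOTCH2 shares reads with its truncated copy NOTCH2NL, and 3.07% of the 75-base stretches of its transcript occur in other genes. The summed estimated counts of NOTCH2 and NOTCH2NL were whole numbers (within 0.002) in 9 of 9 libraries, and NOTCH2NL took 13.8% of the sum with hairpin #3 against 4.35% to 6.98% elsewhere. With the counts of both genes summed the log2 fold changes were -0.46 and -0.53.

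NOTCH3 (chromosome 19, 15159038 to 15200995, minus strand), a receptor best known from smooth muscle and pericytes, was low in Control at 1.58, 1.84 and 2.23 CPM. It was at 8.76, 7.43 and 7.87 CPM in Soft, 4.24-fold higher (log2 fold change 2.08, SE 0.250, adjusted p = 1.97e-04, edgeR). Hairpins #1, #2 and #3 left it at 1.47, 1.11 and 2.22 CPM, within or below the Control range (log2 fold change -0.24, 95% interval -0.83 to 0.36, adjusted p = 0.569, edgeR). The rise in Soft passed under every alternative run, with an adjusted p of at most 0.002. NOTCH4, the receptor outside the 10 genes, was at 17, 12 and 3 counts in Control, 7, 6 and 9 with the hairpins and 29, 21 and 22 in Soft (log2 fold change 1.19 in Soft, adjusted p = 0.0656, edgeR).

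Added per kb of transcript, RNA of the 4 receptors came to 44.4, 44.1 and 44.8 CPM per kb in Control and to 30.1, 32.6 and 33.0 CPM per kb in Soft. The sum was 44.4, 39.3 and 28.1 CPM per kb with hairpins #1, #2 and #3. NOTCH1 made up 7.94%, 7.42% and 7.63% of this RNA in Control and 7.93%, 9.03% and 7.30% in Soft, but 25.3%, 12.6% and 23.3% with the hairpins. NOTCH3 made up 0.411% to 0.574% in Control and 2.62% to 3.35% in Soft. The ratio of NOTCH1 to NOTCH2, a measure picked after seeing the values, was 1.57 higher on the log2 scale in sh_PIP4K2B than in Control (SD 0.677 and 0.0533 between libraries). The groups did not overlap, and an exact two-sided permutation test gave p = 0.1, the smallest that 3 against 3 libraries allow (adjusted p = 0.15 over 9 tests of ratios).

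**Figure D2:**
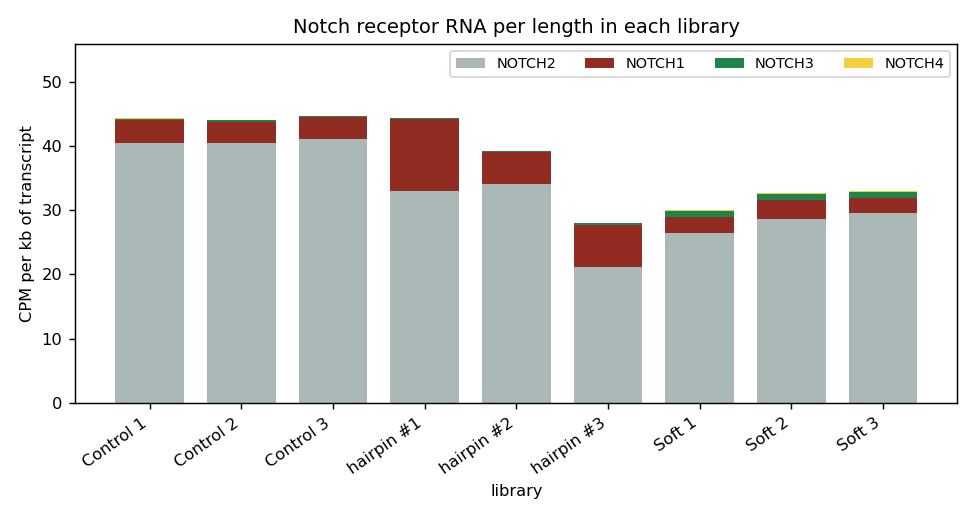
Stacked bars of NOTCH2, NOTCH1, NOTCH3 and NOTCH4 RNA in CPM per kb of transcript, 1 bar per library. NOTCH2 is the main part of every bar, NOTCH1 is widest with hairpins #1 and #3, and the bars of Soft and of hairpin #3 are the shortest.

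Among the ligands, JAG1 (chromosome 20, 10637684 to 10673999, minus strand), a Jagged ligand, was the most abundant. It was at 83.9, 82.3 and 82.6 CPM in Control and 79.7, 83.1 and 85.1 CPM in Soft, with overlapping ranges (log2 fold change -0.01, 95% interval -0.75 to 0.74, adjusted p = 0.991, edgeR). In the hairpin libraries #1, #2 and #3 it was at 51.0, 108 and 172 CPM, once below and in the other libraries above Control. For sh_PIP4K2B this gave a log2 fold change of 0.41 (SE 0.332, adjusted p = 0.422, edgeR), which turned to -0.067 without hairpin #3. In Soft the sign also turned, to 0.015 among genes with at least 10 counts in every library and to 0.10 with scaling by library size only. An antisense lncRNA overlaps 856 bases of the exons of JAG1, and whether counting used strand is not stated in the sources used here.

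JAG2 (chromosome 14, 105140982 to 105168824, minus strand), the second Jagged ligand, had 27 to 40 counts in every library. Its level was 1.19 to 1.72 CPM in Control, 1.29 to 1.59 CPM with the hairpins and 1.34 to 1.82 CPM in Soft. The 3 ranges overlapped, with log2 fold changes of 0.02 in sh_PIP4K2B (95% interval -0.53 to 0.56) and 0.18 in Soft (95% interval -0.36 to 0.72). Of the 75-base stretches of JAG2 6.95% also occur in an lncRNA on the same strand.

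DLL1 (chromosome 6, 170282206 to 170306565, minus strand), a Delta-like ligand that neighbouring cells use in lateral inhibition, was near the floor in Control with 6, 8 and 14 counts, or 0.279, 0.351 and 0.612 CPM. In Soft it had 74, 67 and 77 counts, or 3.37, 3.19 and 3.44 CPM, and its log2 fold change of 2.99 was the largest among the Notch genes in that comparison (SE 0.306, 7.93-fold, adjusted p = 8.58e-05, edgeR). Hairpins #1, #2 and #3 gave 12, 10 and 15 counts, overlapping Control (log2 fold change 0.50, 95% interval -0.26 to 1.27, adjusted p = 0.336, edgeR). The rise in Soft passed under every alternative that kept the gene, with an adjusted p of at most 0.00115, and the filter of 10 counts in every library removed it. The span of FAM120B, on the opposite strand, covers 376 bases of the exons of DLL1. FAM120B was at 53.2 to 55.3 CPM in Control and 54.2 to 57.8 CPM in Soft (log2 fold change 0.04, adjusted p = 0.817, edgeR).

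The ligands outside the 10 genes stayed low. DLL3, a Delta-like protein that is known to inhibit Notch within the cell, had 21 to 26 counts in Control, 12 to 23 with the hairpins and 10 to 19 in Soft. DLL4, best known from endothelium, had at most 5 counts in any library and was not tested. Summed per kb over the 5 ligands, JAG1 made up 93.5% to 94.7% of ligand RNA in Control and 88.7% to 90.7% in Soft, while DLL1 made up 0.491% to 1.09% in Control and 5.47% to 5.91% in Soft. JAG1 RNA per kb was 191, 149 and 85.9 times that of DLL1 in the Control libraries and 15.0, 16.6 and 15.7 times in the Soft libraries. It was 58.7, 142 and 148 times with hairpins #1, #2 and #3. Between Soft and Control this ratio did not overlap (exact two-sided permutation p = 0.1, the smallest possible, adjusted p = 0.15). The ratio was not among the planned results. It restates the rise of DLL1, since JAG1 had a log2 fold change of -0.01, and in Control it rests on 6, 8 and 14 counts of DLL1.

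Of the target genes, HES1 (chromosome 3, 194136148 to 194138732, plus strand) is a repressor that keeps progenitor cells undifferentiated. Its promoter holds the core motif 2 times in the same orientation, as shown above. HES1 was at 10.1, 10.9 and 9.61 CPM in Control. In Soft it was at 27.8, 27.7 and 24.9 CPM, 2.62-fold higher (log2 fold change 1.39, SE 0.346, adjusted p = 0.00924, edgeR). With hairpins #1, #2 and #3 it was at 7.92, 18.2 and 27.1 CPM, or 77.5%, 178% and 266% of the Control mean, so that hairpin #3 reached the level of Soft and hairpin #1 lay below Control. Silencing gave a log2 fold change of 0.80 (95% interval 0.02 to 1.57, adjusted p = 0.141, edgeR), and 1.15 without hairpin #1 (adjusted p = 0.00209, edgeR). The call in Soft was lost when any 1 of the 6 Control and Soft libraries was left out (adjusted p 0.0236 to 0.039, edgeR). It was also lost without hairpin #2 (adjusted p = 0.015, edgeR) and with the replicate number as a block. In a fit of only the Control and Soft libraries HES1 passed, as did most of all tested genes. The log2 fold change of HES1 stayed between 1.34 and 1.50 over all alternatives.

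HES4 (chromosome 1, 998962 to 1000172, minus strand), a related repressor, was at 17.7, 16.0 and 17.2 CPM in Control and fell to 7.52, 6.48 and 6.88 CPM in Soft (log2 fold change -1.29, SE 0.272, 2.44-fold lower, adjusted p = 0.00407, edgeR). Under hairpins #1, #2 and #3 it was at 27.6, 11.7 and 15.8 CPM, or 163%, 68.9% and 93.2% of the Control mean. Here hairpin #1 was the highest of the 9 libraries and the other two lay below the Control range, and the log2 fold change in sh_PIP4K2B was 0.12 (95% interval -0.48 to 0.71, adjusted p = 0.793, edgeR) and turned to -0.31 without hairpin #1. The fall in Soft was also no longer past the threshold when any 1 of the 6 Control and Soft libraries was left out (adjusted p 0.0124 to 0.0205, edgeR). The same held with scaling by library size only (adjusted p = 0.0119, edgeR). In a fit of only the Control and Soft libraries HES4 passed, as did most of all tested genes. The log2 fold change of HES4 lay between -1.35 and -1.18 over all alternatives.

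Set against each other per kb of transcript, HES1 RNA was 0.320, 0.384 and 0.314 times that of HES4 in Control and 2.08, 2.40 and 2.03 times in Soft. The hairpins gave 0.161, 0.874 and 0.964. The summed RNA of both genes was 26.5, 25.0 and 25.6 CPM per kb in Control and 26.2, 24.9 and 23.6 CPM per kb in Soft, with overlapping ranges, while it was 36.3, 24.8 and 35.1 CPM per kb with hairpins #1, #2 and #3. On the log2 scale the ratio was 2.68 higher in Soft than in Control (SD 0.132 and 0.161 between libraries, exact two-sided permutation p = 0.1, the smallest possible, adjusted p = 0.15), and 0.60 higher in sh_PIP4K2B than in Control (SD 1.45 in sh_PIP4K2B, exact p = 0.4). The ratio was picked after seeing the values. The sum depends on the transcript lengths used, 1575 bases for HES1 and 885 bases for HES4. Without division by length HES1 averaged 10.2 CPM in Control and 26.8 CPM in Soft, and HES4 averaged 17.0 and 6.96 CPM.

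**Figure D3:**
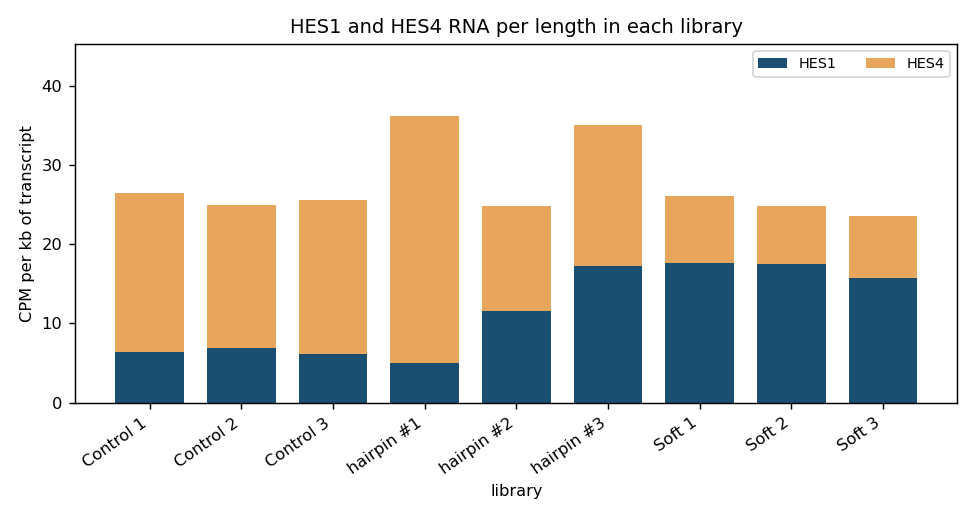
Stacked bars of HES1 and HES4 RNA in CPM per kb of transcript, 1 bar per library. HES4 is the larger part in every Control bar and HES1 in every Soft bar at a similar total, and hairpin #1 has the smallest HES1 and the largest HES4 part.

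HEY1, a HEY family repressor known from heart and vessels, had 13, 13 and 16 counts in Control and 27, 28 and 31 counts in Soft, without overlap. Its level was 0.605, 0.571 and 0.699 CPM in Control and 1.23, 1.33 and 1.39 CPM in Soft. Under hairpins #1, #2 and #3 it had 9, 13 and 84 counts, so hairpin #3 alone lay above Control, at 4.15 CPM or 664% of the Control mean. Silencing gave a log2 fold change of 1.45 (95% interval -0.22 to 3.13, adjusted p = 0.207, edgeR) and -0.27 without hairpin #3. In Soft it was 1.07 (95% interval -0.63 to 2.76, adjusted p = 0.269, edgeR), and 1.06 with an adjusted p of 0.00502 (edgeR) without hairpin #3. HEYL (chromosome 1, 39623435 to 39639643, minus strand), whose promoter holds the motif 2 times, had 0 counts in 9 of 9 libraries, which allows a level up to the floor of 0.131 to 0.148 CPM. HEY2, the third HEY gene, had at most 1 count in Control and Soft and 0, 9 and 20 counts with hairpins #1, #2 and #3, and HES5, a classical target in neural cells, had at most 2 counts in any library. Hairpin #3 was thus the highest of the 9 libraries for HEY1, HEY2 and JAG1, and hairpin #1 for NOTCH1 and HES4.

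**Figure D4:**
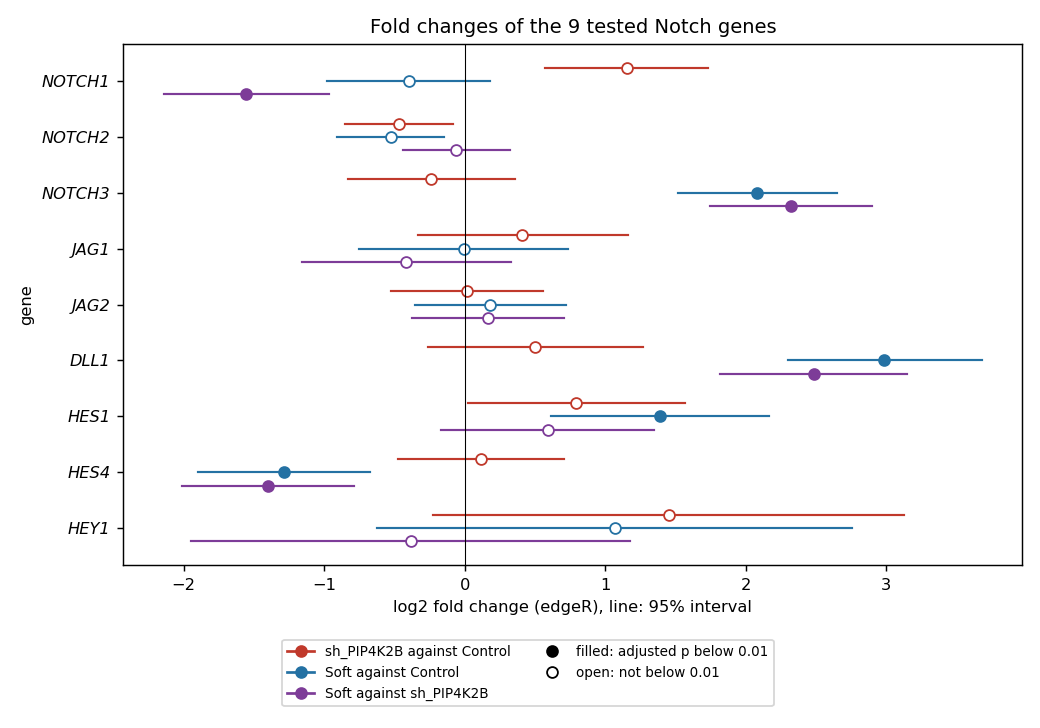
Log2 fold changes of the 9 tested Notch genes with 95% intervals from edgeR, for each pair of groups, filled where the adjusted p was below 0.01. The filled points are NOTCH3, DLL1, HES1 and HES4 for Soft against Control and NOTCH1, NOTCH3, DLL1 and HES4 for Soft against sh_PIP4K2B.

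Soft against sh_PIP4K2B tests whether the gel and the hairpins moved a gene by different amounts. Of the 9 genes 4 differed, with NOTCH3 and DLL1 higher and NOTCH1 and HES4 lower in Soft, and over all tested genes 30.0% differed (14.5% higher and 15.5% lower). The log2 difference was 2.32 for NOTCH3 (SE 0.256, adjusted p = 1.44e-04, edgeR) and 2.49 for DLL1 (SE 0.296, adjusted p = 2.11e-04, edgeR). For NOTCH1 it was -1.55 (SE 0.261, adjusted p = 0.00126, edgeR), with Soft at 22.9 to 28.2 CPM and the hairpins at 47.3 to 108 CPM. HES4 had a log2 difference of -1.40 (SE 0.273, adjusted p = 0.00275, edgeR), which was no longer past the threshold without any 1 of the Soft libraries (adjusted p 0.0114 to 0.0154, edgeR) and in a fit of only these groups (adjusted p = 0.0135, edgeR). No difference passed for NOTCH2 (-0.06, 95% interval -0.44 to 0.32), JAG1 (-0.42, -1.16 to 0.33), JAG2 (0.17, -0.38 to 0.71), HES1 (0.59, -0.17 to 1.35) or HEY1 (-0.39, -1.95 to 1.18), intervals that still allow differences of more than 1 log2 unit for JAG1, HES1 and HEY1. Without hairpin #3 the difference of HEY1 turned to 1.32 (adjusted p = 0.00418, edgeR), and without hairpin #1 that of JAG1 was -0.77 (adjusted p = 0.00464, edgeR).

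A list of 52 other genes of the pathway, of which 47 were tested, was read by role. In Soft against Control 10 rose and 1 fell, 23.4% of those tested beside 30.6% of all tested genes, with a median of 0.322 on the log2 scale. With PIP4K2B silenced 1 rose and none fell, 2.13% beside 5.54%, with a median of 0.269. DLK1, DLL4, DTX1, HES5 and HEY2 had too few counts, and MFNG, NEURL1 and DTX4 were tested although no Control library was over the limit of the filter.

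Of the 5 glycosyltransferases that modify the receptor's EGF repeats, 2 rose in Soft (40% beside 30.6% of all tested genes). LFNG, a Fringe enzyme that extends O-fucose and alters which ligands a receptor answers to, was at 2.10, 1.62 and 1.22 CPM in Control and 12.3, 10.5 and 11.0 CPM in Soft. The rise in Soft was 2.77 on the log2 scale (SE 0.269, adjusted p = 6.56e-05, edgeR). In sh_PIP4K2B the log2 fold change of LFNG was 0.80 (adjusted p = 0.0725, edgeR), and hairpins #1, #2 and #3 stood at 3.18, 3.56 and 1.88 CPM. RFNG, another Fringe, was the second one. Of the 2 sheddases that make the first cut, ADAM17 rose in Soft (0.87, adjusted p = 0.0012, edgeR) and ADAM10 did not pass. None of the 6 gamma-secretase genes passed in any comparison, and their median log2 fold change was 0.216 in Soft and 0.328 in sh_PIP4K2B.

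Of 12 tested genes of endocytosis and ubiquitination 2 rose and 1 fell in Soft (25% beside 30.6% of all tested genes). DTX3, a Deltex family ubiquitin ligase, went from 19.2, 17.6 and 17.3 CPM in Control to 55.5, 56.8 and 61.1 CPM in Soft (log2 fold change 1.68, SE 0.162, adjusted p = 6.49e-05, edgeR). NEURL1B, a ligase of the Neuralized family that acts on ligands, rose from 7.08, 7.51 and 7.17 CPM to 13.6, 13.2 and 14.1 CPM (0.91, adjusted p = 0.00734, edgeR). It stood at 5.48, 4.67 and 2.67 CPM with the hairpins, all below Control (-0.76, adjusted p = 0.0458, edgeR). ITCH, a ligase that targets Notch, was the 1 gene that fell (-0.47, adjusted p = 0.00436, edgeR).

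FBXW7, the F-box protein that marks the Notch intracellular domain for degradation, was the 1 pathway gene that passed in sh_PIP4K2B. It was at 12.7, 13.4 and 14.6 CPM in Control, 28.7, 24.1 and 27.0 CPM with hairpins #1, #2 and #3, and 10.2, 9.81 and 9.97 CPM in Soft. The 3 hairpins lay close together and above all other libraries, with a log2 fold change of 0.97 (SE 0.114, adjusted p = 0.00119, edgeR), against -0.44 in Soft (adjusted p = 0.012, edgeR). No pathway gene passed in sh_PIP4K2B without Control replicate 1 or without Control replicate 2.

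Of the 8 genes of the nuclear activator complex 3 rose in Soft (37.5% beside 30.6% of all tested genes), namely MAML3, MAML1 and SNW1. MAML3, a Mastermind coactivator, was at 5.77, 5.88 and 6.12 CPM in Control, 16.5, 15.6 and 18.1 CPM in Soft (log2 fold change 1.49, adjusted p = 0.0017, edgeR) and 7.32, 13.6 and 17.7 CPM with the hairpins (1.12, adjusted p = 0.022, edgeR). RBPJ, the DNA-binding partner of the receptor domain, was at 56.9, 62.0 and 71.7 CPM in Control, 44.3, 42.7 and 45.5 CPM in Soft and 81.4, 69.8 and 101 CPM with the hairpins. Neither the log2 fold change of -0.52 in Soft (adjusted p = 0.0158, edgeR) nor that of 0.40 with the hairpins (adjusted p = 0.0867, edgeR) passed, but the difference between Soft and sh_PIP4K2B did, at -0.93 (SE 0.147, adjusted p = 9.08e-04, edgeR). Of the 7 corepressors 2 rose in Soft (28.6% beside 30.6% of all tested genes). TLE3, of the Groucho family, went from 40.1, 43.0 and 38.9 CPM to 121, 108 and 115 CPM (1.50, adjusted p = 0.00156, edgeR), and CIR1, which binds RBPJ, from 22.0, 22.3 and 21.4 CPM to 41.7, 44.1 and 43.5 CPM (0.98, adjusted p = 3.69e-04, edgeR). With the hairpins CIR1 was at 40.1, 30.5 and 28.9 CPM, above Control in each library (0.60, adjusted p = 0.0158, edgeR).

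None of the 4 other target genes tested passed against Control. HES7 was at 1.23, 1.81 and 1.39 CPM in Soft against 0.395 to 0.612 CPM in Control (log2 fold change 1.53, adjusted p = 0.01, edgeR, just short of the threshold). HES2 had 44 counts over the Control libraries and 0 in every Soft library, at least 14.3-fold lower against a floor of 3 counts over the group (adjusted p = 0.0312, edgeR). HES2 stood at 0.0921, 2.46 and 0.544 CPM with hairpins #1, #2 and #3. Between Soft and sh_PIP4K2B 9 of the 47 genes differed, 19.1% beside 30.0% of all tested genes. LFNG (1.97), NEURL1B (1.67), DTX3 (1.30), TLE3 (1.18) and RFNG (0.45) had higher log2 levels in Soft, and FBXW7 (-1.41), RBPJ (-0.93), HES6 (-0.84) and ITCH (-0.66) lower ones. When 1 Control or Soft library was left out, 5 to 7 pathway genes passed in Soft against Control, and without hairpin #1 or #3 there were 21 and 17.

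**Figure D5:**
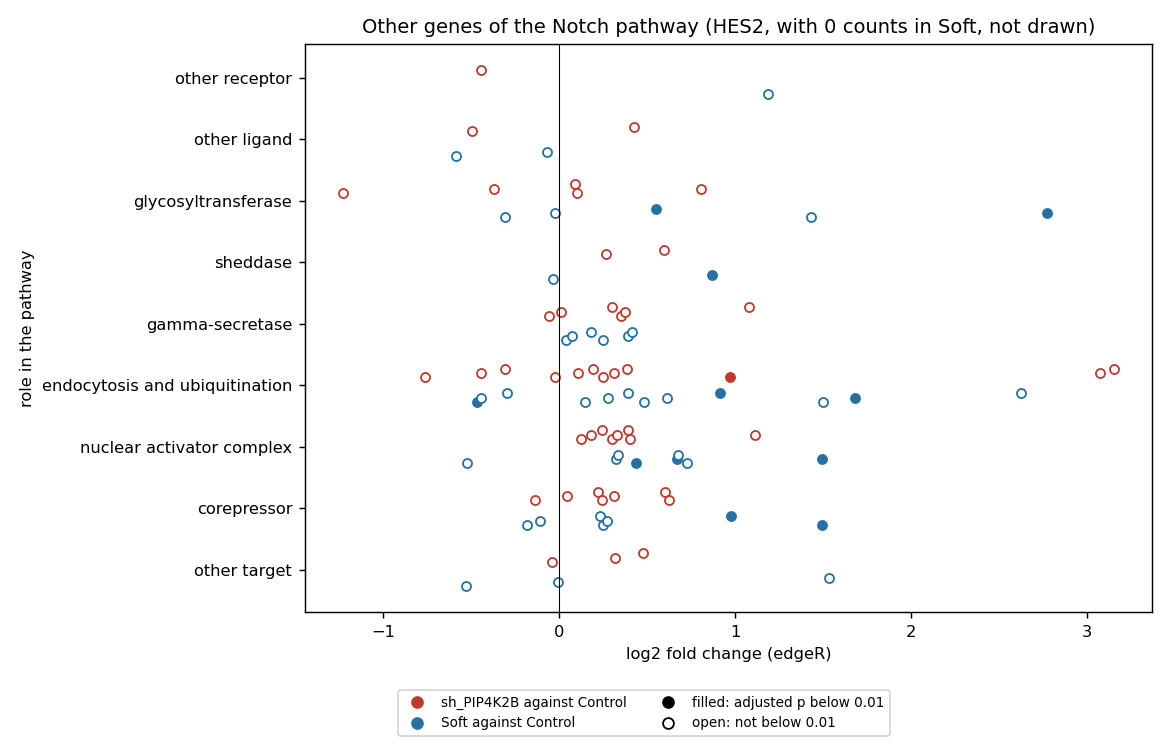
Log2 fold changes (edgeR) of the other tested pathway genes by role, with sh_PIP4K2B against Control in red and Soft against Control in blue, filled where the adjusted p was below 0.01. The filled blue points lie to the right of 0 apart from ITCH, FBXW7 is the 1 filled red point, and the gamma-secretase row has none.

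For the 3 Notch genes with the widest range of log2 CPM over the 9 libraries, the genes with the most similar pattern were taken as those with the smallest root mean square difference of log2 CPM, centred on Control. DLL1, with a range of 3.25, was closest to LOC100507642 (0.228), YPEL1 (0.238) and SOD3 (0.251). SOD3, the secreted superoxide dismutase, was at 5.12 to 6.07 CPM in Control, 6.70 to 8.11 CPM with the hairpins and 47.9 to 48.8 CPM in Soft, while LOC100507642 stayed below 0.70 CPM everywhere. NOTCH3, with a range of 2.88, was closest to FCGR2A (0.2), CLIP3 (0.211) and MUC1 (0.22). CLIP3, a CAP-Gly domain linker protein, was at 34.6 to 35.2 CPM in Control, 23.0 to 43.4 CPM with the hairpins and 112 to 125 CPM in Soft. HEY1, with a range of 3.07, was closest to HAPLN3 (0.296), SNTB1 (0.298) and ANKDD1A (0.323), and of these SNTB1, a syntrophin, stood at 7.92 to 9.35 CPM in Control and at 6.86, 8.57 and 32.5 CPM with hairpins #1, #2 and #3. These are descriptions over 9 libraries that share their groups.

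Marker lists were read for the identity of the cells. Of 10 genes of retinal pigment epithelium, RPE65, TTR and TYR had at most 3 counts anywhere, and the summed level was 45.9 to 51.9 CPM (Control), 41.3 to 58.3 CPM (sh_PIP4K2B) and 62.7 to 68.0 CPM (Soft). Within that list OTX2 averaged 10.9 CPM in Control and 37.2 CPM in Soft and passed the test as higher, while MITF averaged 36.5 and 26.0 CPM and did not pass. BEST1 also passed as higher (adjusted p = 0.00759, edgeR), with 10 counts over the Control libraries and 47 over the Soft libraries. RLBP1 had 0 and 26 counts over the same libraries and was not tested. For simple epithelium, led by KRT8, CDH1 and EPCAM had at most 3 counts, and the sum was 1921 to 2073 CPM, 708 to 1122 CPM and 892 to 943 CPM. The endothelial list summed to 1.01 to 1.97 CPM, 0.723 to 1.29 CPM and 5.19 to 6.24 CPM in the same order, with CDH5 and ERG at most at 3 counts. PECAM1 was higher in Soft than in Control (4.79 against 0.103 CPM), and TEK was lower (0.275 against 1.03 CPM, a log2 fold change of -1.88 with an edgeR adjusted p of 0.00164). The leukocyte list summed to 2.75 to 2.84 CPM, 1.57 to 2.87 CPM and 10.3 to 12.0 CPM, with CD3E at most at 3 counts. CSF1R was higher in Soft (11.0 against 2.25 CPM), whereas PTPRC averaged 0.447 (Control) and 0.321 CPM (Soft) and ITGAM had 6 and 0 counts over 3 libraries, both too few to be tested. The sums of the 3 lists other than simple epithelium were thus highest in Soft, where NOTCH3, DLL1 and HES1 were also higher than in Control, but MITF, TEK and PTPRC had lower means there, and the part of these lists in those results was not tested. In bulk RNA, fewer cells with a transcript and less of it per cell cannot be told apart.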

How the data were processed

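RNA was measured in 9 libraries. Per the labels and methods, the authors made stranded mRNA libraries, read them as paired ends and aligned them to GRCh38/hg38 with STAR. Salmon is also named in the submitters' processing notes, and the tool and annotation used for counting are not given in the sources used here. The authors deposited a table of estimated counts, with 1 column per library and no normalisation, of which 12.3% were not whole, and these were rounded.

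Counts were normalised by TMM and tested with edgeR 4.0.16 in R 4.3.3 (filterByExpr, quasi-likelihood F test, 1 fit of the 9 libraries, Benjamini-Hochberg adjustment, threshold 0.01). The standard error was taken from the F statistic. The procedure was tested on simulated data with 200 genes changed 2-fold. It called 86 of them in sh_PIP4K2B against Control and 78 in Soft against Control, with 2 and 1 false calls. A gene that did not pass may thus still differ 2-fold. The simulation gave all libraries a common spread for each gene, whereas the real hairpin libraries varied more than the others. The simulated calls therefore cannot show the power or the rate of false calls where groups differ in spread. Samples were grouped by the labels. Coordinates, lengths and 75-base stretches are those of GENCODE on GRCh38. Promoters are from RefSeq (GRCh38.p14), and DLL1 and HEY1 were not searched. Totals from 19217346 to 24020799 counts limit genes with few counts, and floors cover counting error only. The 95% intervals of fold changes come from the same fit and include the spread between libraries.

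The 10 Notch genes, the pathway list and the marker lists were chosen with earlier results of these data known. Named genes are PIP4K2B, the 10 Notch genes, up to 6 pathway genes per comparison with the largest log2 fold change (among called genes averaging 50 or more counts in 1 group), NOTCH4, DLL3, DLL4, HES5 and HEY2, the 3 genes most like each of the 3 most variable members, and the most abundant gene of each marker list. NOTCH2NL was added because it shares reads with NOTCH2, and FAM120B because its span overlaps exons of DLL1. Other pathway and marker genes were named after their values were seen. Alternatives were no filter, at least 10 counts in every library, DESeq2 size factors, library size only, DESeq2 1.42.0, only the groups compared, a block for the replicate number, omission of each library in turn, and a threshold of 0.05. Summing NOTCH2 and NOTCH2NL was chosen after seeing the data.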

Additional observations from a re-analysis of the deposited data

How the results depend on the processing

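Among the Notch genes, the rises of NOTCH3 and DLL1 in Soft passed under every alternative that kept the gene. The calls of HES1 and HES4 were both lost when any 1 of the 6 Control and Soft libraries was left out. Both genes passed in a fit of only the Control and Soft libraries, where most of all tested genes passed. In sh_PIP4K2B against Control the count of Notch genes past the threshold, 0 as reported, was 1 with DESeq2 and 1 at an adjusted p below 0.05, and ranged from 0 to 2 when libraries were left out, with 2 (NOTCH1 and HES1) without hairpin #1. In Soft against Control the count of 4 became 7 in that fit of only those groups, with NOTCH1, NOTCH2 and HEY1 added. The count ranged from 2 to 6 when libraries were left out. For the other pathway genes in sh_PIP4K2B the count of 1 became 2 without a filter, 6 with DESeq2, 0 in a fit of only the groups compared and 7 at an adjusted p below 0.05, with a range of 0 to 9 over the libraries left out. In Soft against Control the count of 11 became 18 with DESeq2, 33 in a fit of only those groups and 21 at an adjusted p below 0.05, with a range of 5 to 21. In Soft against sh_PIP4K2B the count of 9 became 21 at an adjusted p below 0.05, with a range of 6 to 17.

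Over all genes, 763 passed in sh_PIP4K2B, and this became 2066 with DESeq2, 5 in a fit of only the groups compared and 2375 at an adjusted p below 0.05, with a range of 66 to 2013 over the libraries left out. In Soft against Control 4217 passed, and 9601 of the 13578 genes tested in a fit of only those groups. At an adjusted p below 0.05 there were 6498, and the range over the libraries left out was 2506 to 6373. In Soft against sh_PIP4K2B 4135 passed, 2183 in a fit of only those groups and 6372 at an adjusted p below 0.05, with a range of 2350 to 5374. The cause of these changes was not tested, apart from the threshold. Scaling by library size only moved the median log2 fold change of all genes to 0.141 in sh_PIP4K2B and 0.119 in Soft.

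The deviations from the group means of same-numbered libraries correlated at -0.115 to 0.039. These values showed no pairing by replicate number, but 3 libraries a group cannot exclude it. The sample titles number the empty vector alike in Control and in Soft, and whether those numbers pair the libraries is not stated. With the replicate number as a block, 295 genes passed in sh_PIP4K2B and none of the Notch genes, 3 Notch genes (NOTCH3, DLL1, HES4) and 7 other pathway genes passed in Soft against Control, and the difference of HEY1 between Soft and sh_PIP4K2B turned to 0.044.

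Signs turned for log2 fold changes near 0 or carried by 1 hairpin. In sh_PIP4K2B, leaving out libraries gave -0.067 to 0.75 for JAG1, -0.095 to 0.18 for JAG2, -0.31 to 0.36 for HES4 and -0.27 to 1.92 for HEY1. In Soft against Control JAG1 was 0.015 with at least 10 counts in every library, 0.10 with scaling by library size only and -0.028 to 0.019 when libraries were left out. In Soft against sh_PIP4K2B the range was -0.26 to 0.059 for NOTCH2, -0.77 to 0.048 for JAG1 and -0.87 to 1.32 for HEY1. Genes with few counts (DLL1 and HEY1 in Control, NOTCH4) are limited by depth, and 3 libraries a group with 1 hairpin each limit every statement on sh_PIP4K2B.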
